A study of Mus musculus with 102 samples.

Results

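SSRP1 is a subunit of FACT, the histone chaperone that it forms with SPT16. FACT loosens nucleosomes ahead of RNA and DNA polymerases and puts them back behind them, and SSRP1 carries an HMG domain that binds DNA. In embryonic stem (ES) cells the complex is abundant and is best known from transcribed genes. H3K4me1 marks enhancers and the flanks of promoters, H3K4me3 marks active promoters, and H3K27ac marks active elements of both kinds. The question behind the series is which chromatin proteins lie where H3K4me1 lies.

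SSRP1 was measured by chromatin immunoprecipitation with sequencing (ChIP-seq) in a single library of 129/Ola mouse ES cells, which were grown on feeders and then passaged without them before crosslinking. The characteristics of this library name no mutation. Its treatment note speaks of MLL3/4 double-knockout cells, which are other libraries of the series. The same region table holds 16 other factors and H3K27ac from the same line. In all, the labels give 102 libraries, of which 45 are from 129/Ola cells and 3 of those are inputs. Of the 17 factors, 14 have 2 libraries, 2 have 3 libraries and SSRP1 has 1. R1 ES cells (129SV) with catalytically inactive MLL3 and MLL4, the main H3K4me1 methyltransferases of enhancers (catalytic-dead cells), and wild-type R1 ES cells supply the H3K4 methylation values used here, and the labels give no SSRP1 library for them. The labels do not say that libraries came from separate cultures. The tables name no genes and give no expression, so the ES cell label was not checked against marker genes.

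An SSRP1 region is a row of the authors' region table at which SSRP1 is listed, which means a log2 enrichment of at least 0.585, or 1.5-fold. There were 23039 such regions among 67697, a share of 34.0%. Each region carries 1 deposited value per factor, so no test between libraries was possible. The depth of the library is unknown. The 95% intervals below are Wilson intervals for shares, Newcombe intervals for differences and order-statistic intervals for medians. They cover counting error over regions only, not the error between libraries, and neighbouring regions are not independent. Every region of the table has H3K4me1 or H3K4me3, so SSRP1 in gene bodies or elsewhere without either mark is not seen. FACT sites of that kind were not analysed here.

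SSRP1 was listed most often where both H3K4 marks lay together, less often at H3K4me3-only regions and least often at H3K4me1-only regions. SSRP1 was present at 8557 of 41819 H3K4me1-only regions, or 20.5% (20.1 to 20.9), below the 34.0% of all regions. It was present at 11959 of 18425 regions with both marks, or 64.9% (64.2 to 65.6). At H3K4me3-only regions it was present at 2523 of 7453, or 33.9% (32.8 to 34.9). H3K4me1-only minus both-mark regions came to -44.4 percentage points (-45.2 to -43.7), and H3K4me1-only minus H3K4me3-only regions to -13.4 points (-14.5 to -12.3). Regions with both marks exceeded H3K4me3-only regions by 31.1 points (29.8 to 32.3). The order of the marks held chromosome by chromosome: the H3K4me1-only share was below the other 2 classes on 19 of 19 autosomes, with ranges of 13.01% to 26.9% for H3K4me1-only regions, 56.7% to 71.0% for both marks and 26.9% to 41.2% for H3K4me3-only regions.

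The composition of the SSRP1 set follows from these shares. Of SSRP1 regions, 51.9% had both marks, 37.1% H3K4me1 only and 10.95% H3K4me3 only, whereas of all regions 27.2% had both marks, 61.8% H3K4me1 only and 11.01% H3K4me3 only. Regions with both marks thus made up more of the SSRP1 set than of the table.

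At the H3K4me1-only regions, SSRP1 was listed far more often at the authors' active enhancers than at their poised ones. Active enhancers are H3K4me1-only regions with an H3K27ac log2 enrichment above 1, and poised enhancers lie below it or have none listed. Both lists hold only regions with at least 1 of 13 names, SSRP1 not being one of them, so the presence of other factors is built into both. SSRP1 was present at 4802 of 12492 active enhancers (38.4%) and at 3364 of 19567 poised enhancers (17.2%). The difference was 21.2 points (20.2 to 22.3), the largest of the 17 factors, ahead of SAP18 with 18.5 and PHRF1 with 18.0 points. The lists select on other names and not on SSRP1, so this order does not compare like with like. Over all H3K4me1-only regions, split by listed H3K27ac, SRSF2 had 24.4 points and SSRP1 23.9. H3K4me1-only regions in neither list had SSRP1 at 391 of 9760, or 4.01% (3.64 to 4.41).

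**Figure D1:**
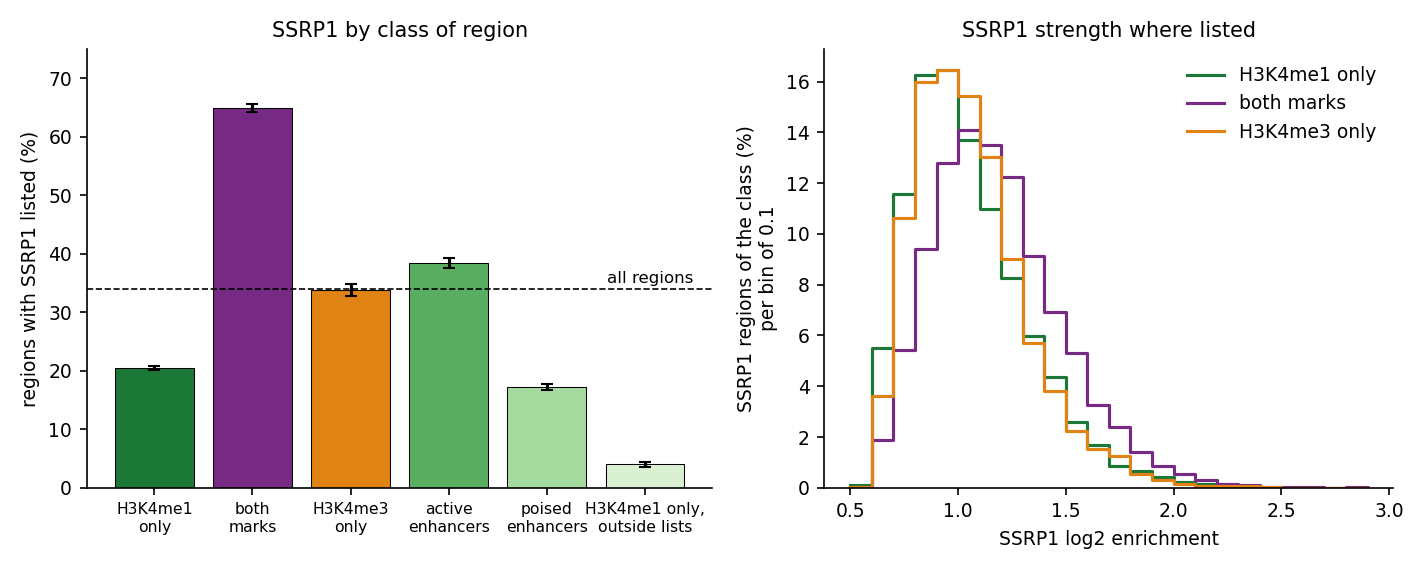
Left, percent of regions with SSRP1 listed, by H3K4 class and, within H3K4me1-only regions, by enhancer list, with Wilson 95% intervals and a dashed line at the 34.0% of all regions. Right, percent of each class's SSRP1 regions per 0.1 of log2 enrichment. Regions with both marks reach 64.9% and their strength curve lies furthest right, with a median of 1.15, against 1.001 at H3K4me1-only and 1.02 at H3K4me3-only regions.

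Where SSRP1 was listed, its strength differed little between classes. The median log2 enrichment was 1.08 over all SSRP1 regions, with quartiles of 0.90 and 1.29, a lowest value of 0.59 and a highest of 2.92. That median is 2.1104-fold. The sources used here do not say what the enrichment is relative to. The median was 1.001 (0.99 to 1.01) at H3K4me1-only regions, 1.15 (1.14 to 1.15) at regions with both marks and 1.02 (1.01 to 1.04) at H3K4me3-only regions. Active enhancers had a median of 1.04 and poised enhancers 0.97. Within classes the quartiles overlapped widely, for example 0.85 to 1.20 at H3K4me1-only regions and 0.97 to 1.36 at regions with both marks. A log2 enrichment of 1 or more, a doubling, was reached at 14060 regions, or 20.8% of all regions. By class it was reached at 10.3% of H3K4me1-only, 45.7% of both-mark and 18.0% of H3K4me3-only regions. Just inside the listing limit stood regions at 0.59, 0.59 and 0.60. Values below the limit are not listed, so none can be given from just outside it.

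The strongest SSRP1 regions were short, rich in other factors and nearly all acetylated. Among the 100 highest values, all at 2.14 or more, 72 regions had both marks, 22 had H3K4me1 only and 6 had H3K4me3 only. Their median width was 240.5 bp. H3K27ac was listed at 97 of them, PHRF1 at 86, SUR2 at 78 and WSTF at 14, and the median number of other factors was 12 of 16. Over all SSRP1 regions these shares were 86.3%, 65.6%, 57.4% and 9.74%, with a median of 8 other factors. Over all regions they were 62.6%, 36.6%, 31.4% and 9.47%. Coordinates below are of build mm9 and count from 1. The table pairs no region with a gene.

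The highest value of all, 2.92, was at chr19:11166737-11166942, a 206 bp region with both marks, an H3K27ac log2 enrichment of 1.85 and all 16 other factors. It was followed among both-mark regions by chr9:8017673-8017860 at 2.87, with 14 other factors and an H3K27ac log2 enrichment of 2.26, and chr12:113901912-113902139 at 2.81, with 13. The next were chr15:51957157-51957338 at 2.73, where the Mediator kinase-module subunit MED12 stood higher still at 2.999, and chr10:80487892-80488414 at 2.66, which had every other factor except WSTF. The regions on chr9 and chr15 overlapped no H3K4me1 peak of the R1 cells, whereas 90.4% of SSRP1 regions with both marks did.

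The highest H3K4me1-only value, 2.90, was at chr19:32342968-32343201, an active enhancer of 234 bp with an H3K27ac log2 enrichment of 1.81. It had 9 other factors, led by BAZ1A at 1.61, so SSRP1 was its strongest factor by more than 1 log2 unit. At chrX:132704385-132704593 SSRP1 reached 2.71 with only 4 other factors, SMC3 being the highest of them at 1.37. The region chr13:100168294-100168502 had 2.68, with 11 other factors and PHRF1 at 2.17. The strongest poised enhancer was chr17:45985800-45986008, where SSRP1 was at 2.38 beside 13 other factors and the cohesin subunit SMC3 was at 2.94. Its H3K27ac log2 enrichment of 0.93 lay just under the split of 1 between the lists. The fifth in the class, chr5:122759602-122759846, had 2.38 with 10 other factors.

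At H3K4me3-only regions the top values were lower. They began with chr3:10790120-10790355 at 2.48 and chr12:24319223-24319481 at 2.40, each with 9 other factors. The region chr8:80431065-80431262 had 2.33 with every other factor except BAF155, WSTF being highest at 2.98. The last 2 of the 5 were chr14:43645852-43646032 at 2.28, with 13 other factors, and chr17:39905477-39906171 at 2.21, with 11. None of these 5 overlapped an H3K4me1 peak of the R1 cells, whereas 86.9% of SSRP1 regions of this class did.

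SSRP1 rarely stood alone. Of its 23039 regions, 314 (1.36%) had none of the 16 other factors, and 299 of those were H3K4me1-only, 13 had both marks and 2 had H3K4me3 only. H3K27ac was also missing from the list at 145 of the 314. The strongest of these bare regions was chr8:34789698-34789991, H3K4me1-only, with a log2 enrichment of 1.57. In the other classes the strongest bare regions were chr1:63120878-63121183 at 0.98, with both marks, and chr19:29435818-29436940 at 0.75, with H3K4me3 only. Lone SSRP1 regions thus reached lower values than crowded ones.

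H3K27ac accompanied most SSRP1 regions. It was listed at 86.3% of SSRP1 regions and 50.4% of regions without SSRP1, against 62.6% of all regions. The gap was widest at H3K4me1-only regions, where H3K27ac was listed at 75.5% of regions with SSRP1 and 39.0% of those without. At regions with both marks the shares were 92.2% with SSRP1 and 81.0% without, and at H3K4me3-only regions 94.6% with and 87.5% without. Read the other way, SSRP1 was listed at 33.3% of H3K4me1-only regions with H3K27ac and 9.36% of those without, a difference of 23.9 points (23.2 to 24.7). Only the splicing factor SRSF2, with 24.4 points, had a larger difference among the 17 factors.

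The share did not keep climbing with acetylation at H3K4me1-only regions. It was 9.36% where H3K27ac was not listed, 27.4% at a log2 enrichment below 1, 37.2% from 1 to 1.5, 35.5% from 1.5 to 2, 26.2% from 2 to 2.5 and 24.3% (20.1 to 29.0) at 2.5 or more, where 85 of 350 regions had it. The share was thus highest in the middle bins. Over the same bins the mean number of other factors was 2.07, 3.29, 4.42, 4.86, 4.69 and 5.45, so it was a little lower from 2 to 2.5 than from 1.5 to 2 and highest in the top bin. The top bin minus the bin from 1 to 1.5 came to -12.9 points (-17.3 to -8.1), the lowest of the 17 factors. BAZ1A followed with -11.8, PHF5A with -11.4 and PHRF1 with -8.83 points, while RUVBL2 stood 26.2 and BAF155 24.5 points higher in the top bin.

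In the other classes the course differed. At regions with both marks the SSRP1 share was 43.2% without listed H3K27ac, reached 71.0% from 1 to 1.5 and was 62.1% at 2.5 or more. At H3K4me3-only regions it was 17.9% without H3K27ac, between 29.1% and 34.7% in the middle bins and 48.3% at 2.5 or more, so that there the most acetylated regions had it most often. These top regions also had a mean of 10.02 other factors. The strength of SSRP1 barely followed H3K27ac: across the 19876 SSRP1 regions with both values Spearman's rho was 0.08, and across 6461 H3K4me1-only regions it was 0.15. Such values share regions, widths and possibly inputs, and are given as descriptions.

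**Figure D2:**
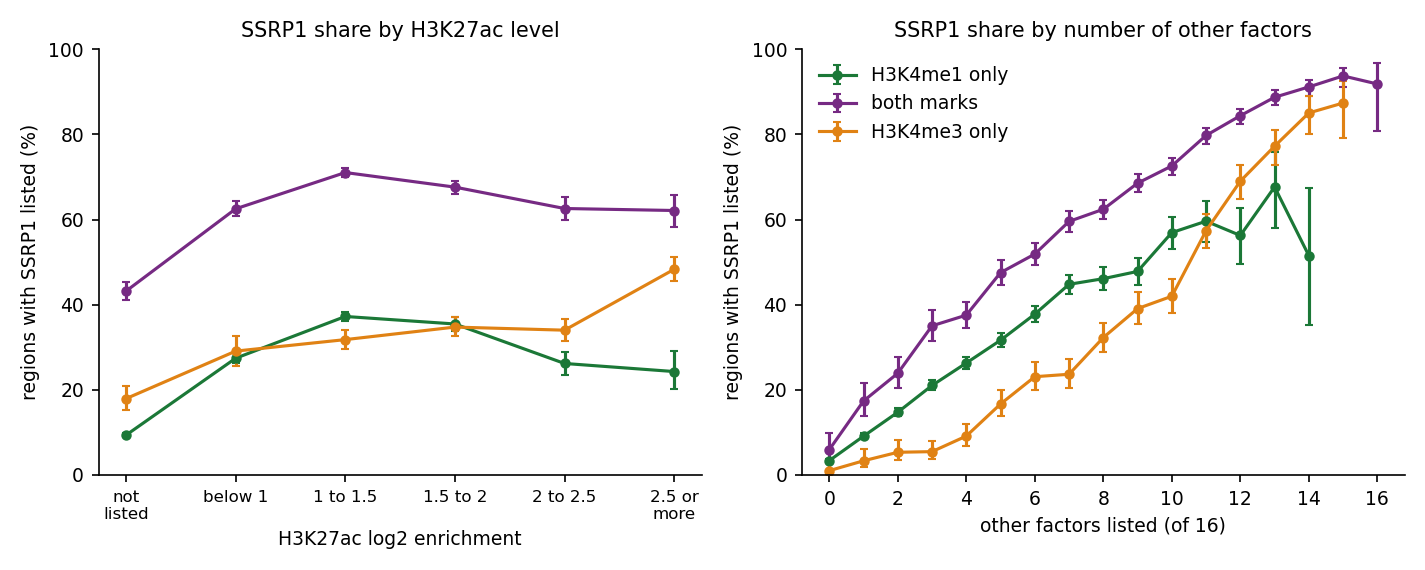
Percent of regions with SSRP1 listed, by H3K27ac log2 enrichment (left) and by the number of other factors listed (right; points with 20 or more regions), per H3K4 class with Wilson 95% intervals. The H3K4me1-only curve peaks at 37.2% on the left and is 24.3% in its last bin, while on the right every class climbs up to 11 other factors, from 3.36% at H3K4me1-only, 5.94% at both-mark and 1.01% at H3K4me3-only regions with 0, and the H3K4me1-only curve is uneven after that.

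SSRP1 regions were crowded. They had 8.06 ± 3.797 other factors (SD over 23039 regions; median 8), against 3.50 ± 3.27 at the 44658 regions without SSRP1 (median 3). In the H3K4me1-only class the means were 5.20 with SSRP1 and 2.51 without, in the both-mark class 9.66 with and 6.56 without, and in the H3K4me3-only class 10.1 with and 6.11 without. At least 10 other factors were listed at 38.9% of SSRP1 regions and 6.42% of the rest.

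The share of regions with SSRP1 climbed with each added factor up to 11 at H3K4me1-only regions and up to 15 in the other classes, from a different start in each class. Beyond 11 the H3K4me1-only share went up and down, at 56.2% for 12, 67.6% for 13 and 51.5% for 14 other factors. At 5 other factors it was 31.6% at H3K4me1-only regions, 47.5% at both-mark regions and 16.7% at H3K4me3-only regions. At 10 it was 56.9%, 72.6% and 42.0% in the same order, and at 14 it was 51.5% (35.2 to 67.5; 33 regions), 91.1% and 85.0%. Between 0 and 10 other factors, H3K4me1-only regions therefore had SSRP1 more often than H3K4me3-only regions with as many factors. Set to the same mix of 0 to 14 other factors, the share was 29.4% at H3K4me1-only, 42.6% at both-mark and 20.7% at H3K4me3-only regions. The difference between H3K4me1-only and H3K4me3-only regions was then 8.78 points, against -13.4 points without this step. It was above 0 for 7 of the 17 factors on this footing and for none of them without it, and SSRP1 ranked 4 of 17, after BAZ1A (12.1), PHRF1 (10.6) and PHF5A (9.83). Against regions with both marks the difference stayed below 0, at -13.2 points. SSRP1 strength followed the crowd too, with a rho of 0.42 between its log2 enrichment and the number of other factors over 23039 regions.

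Among single partners, PHRF1 and SUR2 went with SSRP1 most once the number of other factors was held equal. PHRF1 is a PHD and RING finger protein, and SUR2 is the Mediator subunit MED23, which links transcription factors to RNA polymerase II. PHRF1 was listed at 65.6% (65.0 to 66.2) of SSRP1 regions and 21.6% of regions without SSRP1, against 36.6% of all regions. SUR2 was listed at 57.4% (56.7 to 58.0) of SSRP1 regions and 18.0% of the others, against 31.4% of all regions. By the plain difference in share PHRF1 came first with 44.03 points, and SAP18 (39.52) and SUR2 (39.39) were almost level. With partners counted only from a log2 enrichment of 1 the order changed, to SNF2H (30.5), SAP18 (28.4), SRSF2 (25.2), PHRF1 (24.4) and SUR2 (22.3 points). Because SSRP1 regions hold more of nearly every factor, each partner was also compared at regions with the same number of other factors. On that footing SSRP1 was 20.5 points more frequent where PHRF1 was listed and 15.7 points more frequent where SUR2 was listed, the first and second of the 16 partners. They led in each class: PHRF1 by 16.6 and SUR2 by 12.1 points at H3K4me1-only regions, 20.4 and 14.8 points at both-mark regions, and 17.7 and 21.6 points at H3K4me3-only regions, where SUR2 came first. Strengths followed suit, with rho of 0.50 for PHRF1 over 15115 shared regions and 0.47 for SUR2 over 13215, within a range of 0.20 to 0.50 over the 16 partners.

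PHRF1 and SUR2 together separated regions with and without SSRP1 widely. SSRP1 was listed at 73.4% of the 13837 regions with both, 45.5% of those with PHRF1 alone, 41.3% of those with SUR2 alone and 13.7% of the 35541 with neither. At H3K4me1-only regions the share was 52.7% with both and 11.4% with neither. At both-mark regions it was 82.1% with both and 31.9% with neither, and at H3K4me3-only regions 70.2% with both and 12.7% with neither. Regions with both had a mean of 8.13 further factors and those with neither 2.44.

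The other Mediator subunits went with SSRP1 less closely than SUR2. MED1, the subunit known for contacts with nuclear receptors, was listed at 52.7% of SSRP1 regions and 22.2% of the rest, against 32.6% of all regions. MED12, of the kinase module, was listed at 37.1% of SSRP1 regions and 17.3% of the rest, against 24.0% of all regions. At equal numbers of other factors the SSRP1 share differed by 4.11 points with MED1 and by 0.41 points with MED12. SSRP1 was present at 76.5% of regions with all 3 Mediator subunits and 15.6% of regions with none. Mean counts of further factors at these regions were 8.82 and 2.08.

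Proteins of RNA processing and of co-repression were common at SSRP1 regions. SAP18, which belongs to the SIN3 deacetylase complex and to a splicing-linked complex, was listed at 68.2% of SSRP1 regions and 28.6% of the rest, against 42.1% of all regions. The SR splicing factor SRSF2 was listed at 77.2% of SSRP1 regions and 42.0% of the rest, against 54.0% of all regions, the highest share of the 17 factors. SRSF1, its relative, was listed at 63.0% of SSRP1 regions and 29.4% of the rest, against 40.8% of all regions. PHF5A, of the SF3B splicing complex, was listed at 31.6% of SSRP1 regions and 13.8% of the rest, against 19.8% of all regions. At equal numbers of other factors SSRP1 was 10.2 points more frequent with SAP18, 9.95 with SRSF2, 6.27 with SRSF1 and 4.24 with PHF5A. SAP18 and SRSF2 ranked 3 and 4 of the 16 partners on this measure.

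The ISWI remodellers split by subunit. SNF2H, the ISWI ATPase, was listed at 64.3% of SSRP1 regions and 27.2% of the rest, against 39.8% of all regions. BAZ1A, its partner in the ACF and CHRAC remodellers, was listed at 37.6% of SSRP1 regions and 15.2% of the rest, against 22.8% of all regions. WSTF, its partner in the WICH remodeller, had close to the same share with SSRP1 (9.74%) as without (9.34%), against 9.47% of all regions. At equal numbers of other factors SSRP1 was 8.30 points more frequent with SNF2H and 6.80 with BAZ1A, and 4.03 points less frequent with WSTF, a difference of -4.03. WSTF was last of the 16 in the H3K4me1-only and both-mark classes, and second to last at H3K4me3-only regions (-1.13), where RUVBL2 was last (-1.78). For BAZ1A the difference was 7.16 points at H3K4me1-only and 10.01 points at H3K4me3-only regions. At both-mark regions it was only 1.97 points, and BAZ1A ranked 12 of 16 there. The 2 SNF2H partners therefore stood at unlike places in the order over all regions, but closer together in rank at both-mark regions. SSRP1 was listed at 65.7% of regions with SNF2H and BAZ1A and at 17.3% of regions with neither. Means of 8.23 and 2.42 further factors were listed at these regions.

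SWI/SNF subunits stood in the middle and near the end of the order. BAF155, a core subunit, was listed at 46.0% of SSRP1 regions and 15.8% of the rest, against 26.1% of all regions. BRG1, the ATPase, was listed at 28.9% of SSRP1 regions and 13.5% of the rest, against 18.7% of all regions. At equal numbers of other factors the SSRP1 share differed by 4.85 points with BAF155 and by 0.42 points with BRG1. With both subunits listed SSRP1 was present at 68.3% of regions, and with neither at 22.3%.

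RUVBL1 and RUVBL2, the paired AAA+ ATPases of the INO80 and TIP60 complexes, and the cohesin subunit SMC3 were frequent at SSRP1 regions, with little of it beyond the number of other factors. RUVBL1 was listed at 52.0% of SSRP1 regions and 20.6% of the rest, against 31.3% of all regions. RUVBL2 was listed at 60.6% of SSRP1 regions and 27.05% of the rest, against 38.5% of all regions. SMC3, which is also found at insulators, was listed at 53.9% of SSRP1 regions and 28.2% of the rest, against 36.9% of all regions. At equal numbers of other factors the differences in the SSRP1 share were 3.008, 1.997 and 2.74 points for RUVBL1, RUVBL2 and SMC3, small beside those of PHRF1 and SUR2.

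**Figure D3:**
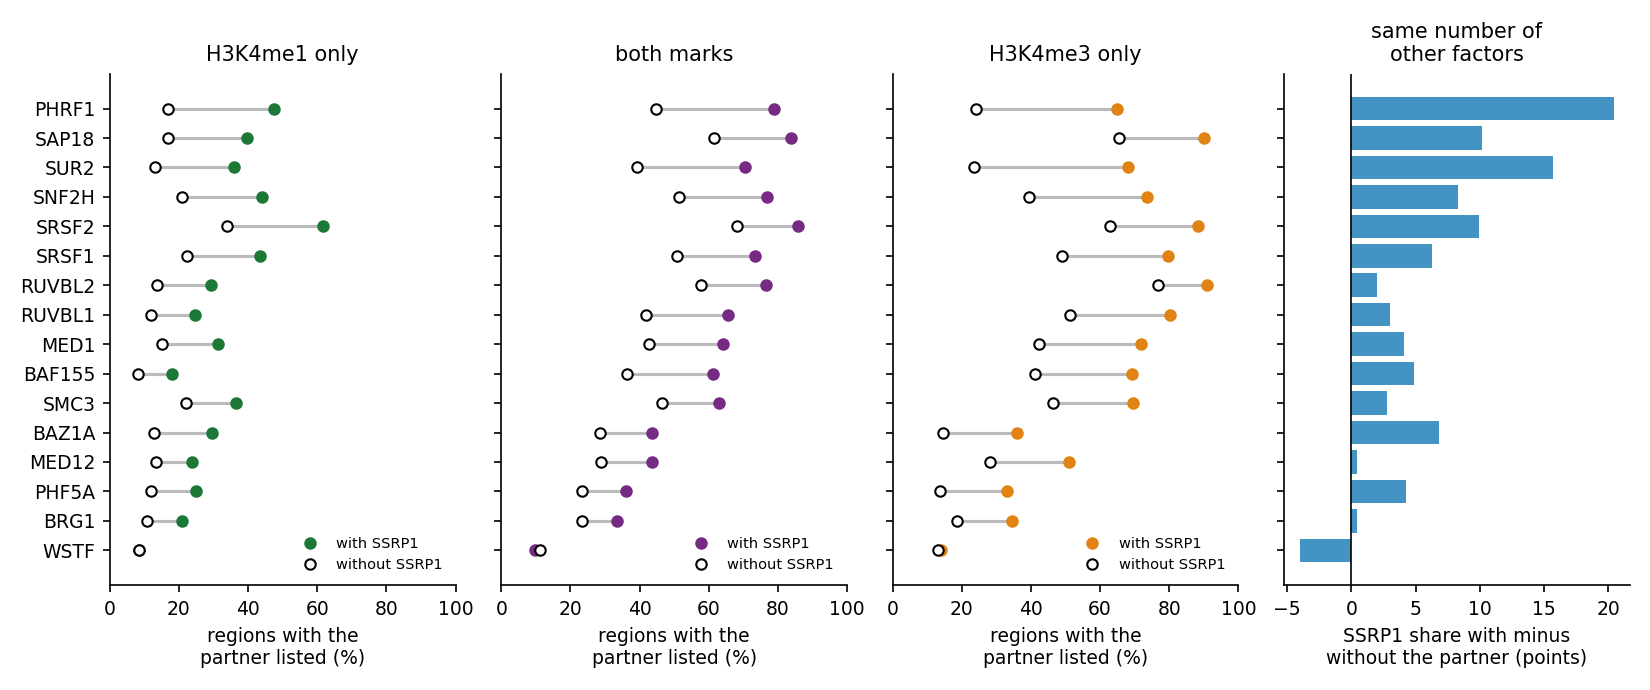
First 3 panels, percent of regions with each partner listed, at regions with SSRP1 (filled) and without it (open), per H3K4 class. The last panel gives the SSRP1 share with minus without the partner at regions with the same number of other factors, in percentage points over all classes. PHRF1 (20.5 points) and SUR2 (15.7 points) stand out and WSTF (-4.03 points) lies below 0.

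SSRP1 regions were wider than other regions taken over the whole table, at H3K4me1-only and at both-mark regions, and narrower at H3K4me3-only regions. The median width was 989 bp at SSRP1 regions and 672 bp at other regions. At H3K4me1-only regions the medians were 551 bp with SSRP1 and 516 bp without. Split by H3K27ac, SSRP1 regions of this class were not wider. The medians were 747 bp with SSRP1 and 756.5 bp without where H3K27ac was listed, and 329 and 429 bp where it was not. Within the active list they were 717 and 624 bp, and within the poised list 406.5 and 372 bp. At both-mark regions they were 1175 bp with and 877 bp without, and at H3K4me3-only regions 1447 bp with and 1540 bp without. At H3K4me1-only regions the SSRP1 share hardly changed with width, lying between 19.5% and 22.8% over 5 width bins. The strength did change, with a median log2 enrichment of 1.16 in the narrowest bin (181 to 284 bp) and 0.88 in the widest (2036 bp or more), and rho with width was -0.40 over 8557 regions. Strength is thus highest at narrow regions. How the authors took the enrichment over a region is not given, and its part in this trend was not tested. From the narrowest to the widest bin the mean number of other factors went from 3.77 to 2.01 at H3K4me1-only regions. At both-mark regions it was 8.10 in the narrowest and 7.93 in the widest bin. The part of width in the rho of 0.42 between SSRP1 strength and the number of other factors was not tested.

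H3K4me1-only regions near H3K4me3 had SSRP1 more often than remote ones. Regions of the table do not overlap and lie at least 1001 bp apart, so distances start there. SSRP1 was listed at 26.1% of H3K4me1-only regions at 1 to 2 kb from the nearest region with H3K4me3, 26.3% at 2 to 5 kb, 21.8% at 5 to 20 kb, 16.8% at 20 to 100 kb and 9.15% over 100 kb away. Over the same bins the share with H3K27ac went from 56.3% to 27.1% and the mean number of other factors from 3.42 to 2.45. Among regions with H3K27ac the SSRP1 share was 39.5% in the nearest bin and 18.1% (15.6 to 21.1; 137 of 755) in the farthest. Among regions without it the share was 8.90% in the nearest bin, 11.2% at 2 to 5 kb and 5.80% in the farthest. In percentage points the gradient was therefore larger at acetylated regions, where the share also started higher. From the nearest to the farthest bin their mean number of other factors went from 4.47 to 3.75. At regions without H3K27ac it went from 2.06 to 1.97. Median strength did not follow distance, being 1.02 in the nearest and 1.04 in the farthest bin.

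**Figure D4:**
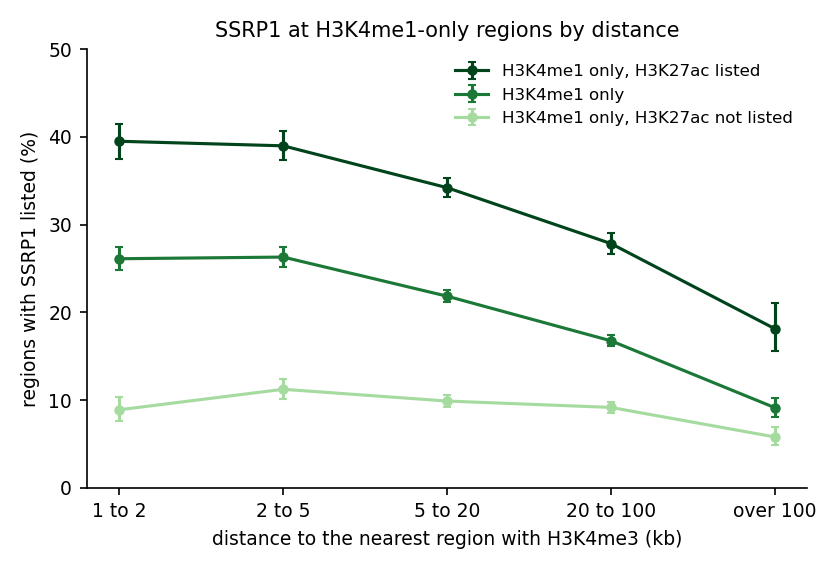
Percent of H3K4me1-only regions with SSRP1 listed, by distance to the nearest region with H3K4me3 in kb, for regions with listed H3K27ac, for all of them, and for regions without listed H3K27ac, with Wilson 95% intervals. The top line runs from 39.5% to 18.1% and the bottom line stays between 5.80% and 11.2%.

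SSRP1 regions also lay near each other. When the next H3K4me1-only region was within 5 kb, it had SSRP1 in 32.9% (31.2 to 34.7) of cases beside an SSRP1 region and 16.04% (15.4 to 16.7) beside a region without SSRP1. At both-mark regions the same shares were 76.3% (74.6 to 78.0) and 69.2% (66.0 to 72.3). At H3K4me3-only regions they were 47.8% (34.1 to 61.9; 46 regions) and 20.8% (14.5 to 28.9; 120 regions). In each class, then, a neighbour of an SSRP1 region had SSRP1 more often, with the smallest gap at both-mark regions.

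The R1 lines gave H3K4me1 values with and without the catalytic activity of MLL3/4 at the positions of SSRP1 regions. They are another line without an SSRP1 library, so they cannot show what the mark in 129/Ola cells depends on. At SSRP1 regions with H3K4me1 only, an R1 H3K4me1 peak was found at 69.5% (68.5 to 70.5), against 70.3% (69.8 to 70.8) of such regions without SSRP1. Split by H3K27ac the shares lay further apart. They were 74.7% with SSRP1 and 79.1% without where H3K27ac was listed, and 53.5% and 64.7% where it was not. Over the whole class, the overlapping peak was distal in 59.7% of SSRP1 regions and 62.9% of the others, and proximal in 9.86% and 7.35%. H3K4me1 fold enrichment had a median of 2.111 in catalytic-dead cells, against 3.24 in wild-type cells, at SSRP1 regions, and of 2.06 in catalytic-dead cells, against 3.19 in wild-type cells, at regions without SSRP1. On the log2 scale the median ratio (catalytic-dead to wild-type) was -0.68 (-0.71 to -0.65) with SSRP1 and -0.68 (-0.70 to -0.67) without, a difference of 0.007 (-0.027 to 0.037). Over the class, H3K4me1 fold enrichment was thus lower in the mutant to about the same degree with and without SSRP1. At distal peaks the medians were -0.72 with SSRP1 and -0.73 without. At the fewer proximal peaks they differed, at -0.43 with SSRP1 (844 regions) and -0.19 without (2445 regions). Each region took the R1 peak of largest overlap, so a peak over several regions counts at each of them. A change is called here at 2-fold, with no test. Decreased peaks lay at 35.2% (34.0 to 36.4) of these SSRP1 regions with an H3K4me1 peak. For the other H3K4me1-only regions with a peak this share was 37.3% (36.6 to 37.9). Of all R1 H3K4me1 peaks, 28.4% were decreased. Increases made up 1.41% at SSRP1 regions, 2.55% at the others and 15.2% of all peaks. Each line has 1 value per peak, and the values were realigned with the peak positions before use.

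Split by list, active enhancers had a median H3K4me1 log2 ratio of -0.72 with SSRP1 and -0.71 without. Poised enhancers had -0.58 (-0.64 to -0.52) with SSRP1 and -0.65 (-0.68 to -0.63) without. Regions with H3K27ac not listed had -0.55 (-0.65 to -0.49) with SSRP1 and -0.67 (-0.69 to -0.65) without. With H3K4me1-only regions cut at the quartiles of SSRP1 strength, the ratio was -0.63, -0.72, -0.65 and -0.73 from the weakest to the strongest set, in no order. Over the same sets the share of regions with an R1 peak was 78.4%, 74.2%, 68.2% and 57.3%, and the median region width was 1148, 856, 540 and 304 bp.

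For H3K4me2 a gap appeared. An R1 H3K4me2 peak lay at 37.4% of H3K4me1-only regions with SSRP1 and 42.3% of those without. The median log2 ratio was -0.72 (-0.76 to -0.69) with SSRP1 and -0.84 (-0.86 to -0.82) without, a difference of 0.12 (0.079 to 0.157). It was 0.27 on chromosome 1, where the layout of the values is not in doubt, and 0.053 with the values as deposited. The gap was one of distal peaks, with medians of -0.77 with SSRP1 and -0.93 without. At proximal peaks the order was reversed, at -0.41 with SSRP1 (503 regions) and -0.27 without (1975 regions). At active enhancers the ratio was -0.85 with SSRP1 and -1.001 without, and at poised enhancers -0.42 with and -0.58 without. Decreased H3K4me2 peaks lay at 38.0% (36.3 to 39.7) of SSRP1 regions of this class with such a peak. For the others with a peak this share was 43.8% (43.0 to 44.7). Of all H3K4me2 peaks, 23.0% were decreased. Increases were few, at 0.50% with SSRP1, 0.33% without and 1.91% of all H3K4me2 peaks. Wild-type fold enrichment differed as well, with medians of 3.99 at SSRP1 regions and 4.29 at the others, and its part in the gap was not tested. H3K4me3 hardly changed at H3K4me1-only regions, with median log2 ratios of -0.05 with SSRP1 and 0.00 without. H3K4me3 peaks were decreased at 7.38% of these SSRP1 regions with a peak and 6.85% of the others, against 4.48% of all H3K4me3 peaks. They were increased at 5.69% with SSRP1 and 6.73% without, against 3.15% of all.

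At regions with H3K4me3, with or without H3K4me1, the H3K4me1 fold enrichment was higher in catalytic-dead than in wild-type cells. Fold enrichments are given per line, so a higher value does not show that there was more of the mark. With both marks the median log2 ratio was 0.58 (0.56 to 0.59) with SSRP1 and 0.49 (0.47 to 0.52) without. The authors' distal and proximal groups split the both-mark regions, of which 10812 with SSRP1 had a peak. That peak was distal at 5518 regions, with a median of 0.30 (0.28 without SSRP1). It was proximal at 5294, with 0.81 (0.77 without SSRP1). At H3K4me3-only regions the median was 1.07 in both sets. There, an increased peak lay at 57.8% of SSRP1 regions with a peak and 58.2% of the others with one. Of all R1 H3K4me1 peaks, 15.2% were increased. An R1 H3K4me1 peak lay at 86.9% of H3K4me3-only regions with SSRP1 and 88.7% of those without. The classes come from the line with the SSRP1 library, so H3K4me3-only does not mean free of H3K4me1 in the R1 lines. The direction of the change in H3K4me1 fold enrichment thus followed the H3K4 class of a region and not whether SSRP1 was listed.

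**Figure D5:**
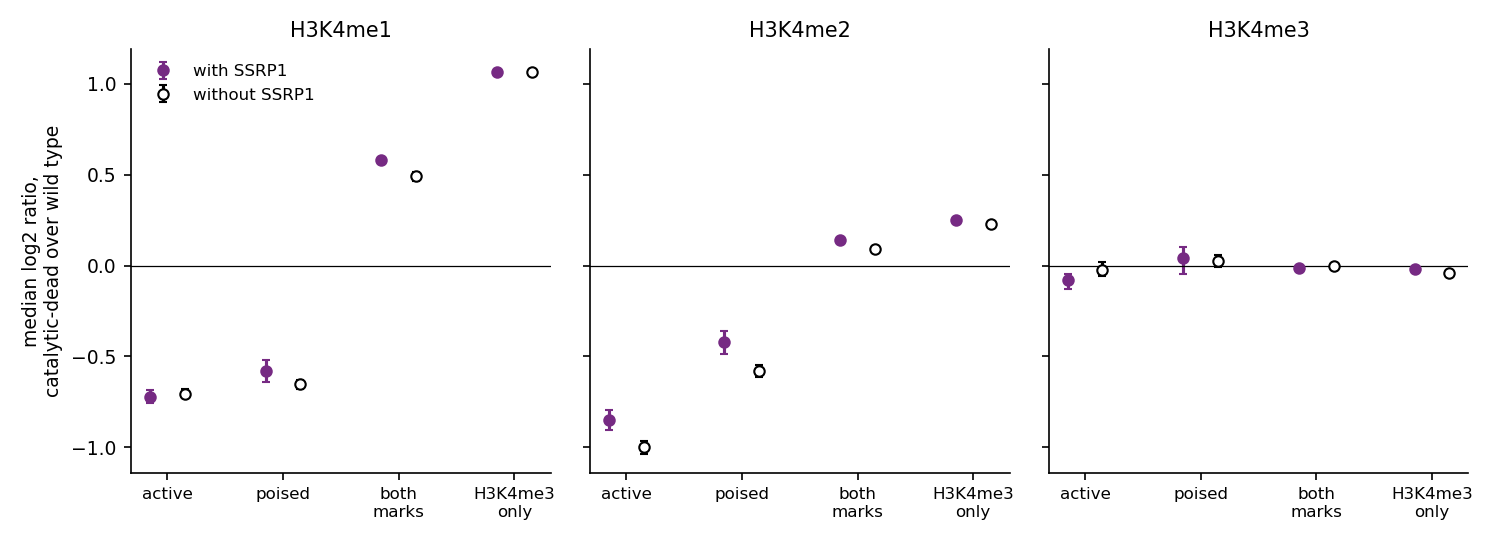
Median log2 ratio, catalytic-dead to wild-type R1 cells, of fold enrichment for H3K4me1, H3K4me2 and H3K4me3 peaks at regions with SSRP1 (filled) and without it (open), for active and poised enhancers and the other 2 classes, with order-statistic 95% intervals. The 2 sets lie together for H3K4me1 at active enhancers (-0.72 and -0.71) and apart for H3K4me2 (-0.85 and -1.001).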

How the data were processed

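The labels give 1 SSRP1 ChIP-seq library (antibody from Santa Cruz) among the 129/Ola libraries. Per the submitters' processing notes, reads were handled with Bowtie, Picard and MACS2 on build mm9, and for the R1 lines with MACS2 2.1.0.20150731, Picard 2.11.0, BWA 0.7.13-r1126 and deepTools (2.5.1, 2.5.3). The sources used here give neither the role of each tool nor how replicates were pooled.

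The authors deposited a region table with a log2 enrichment per region and factor, listed from 0.585 upwards, with H3K4me1 and H3K4me3 as presence only. Of its 31 names 20 were used, and 11 that matched no 129/Ola library were not. The authors also deposited R1 peak tables with a fold (ratio) enrichment per line, per the file headers. Their score columns were out of step with the positions. On chromosomes 2 to 19 the mean rho of peak width with wild-type enrichment was 0.0025, 0.0055 and -0.0038 for H3K4me1, H3K4me2 and H3K4me3 as deposited, and 0.253, 0.675 and 0.687 in number order of the chromosomes, against 0.215, 0.661 and 0.674 on chromosome 1, where both orders coincide. Number order was used.

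Regions were classed by their marks and lists, and matched to R1 peaks at 1 bp of overlap (bedtools 2.31.1). Shares, medians, 95% intervals and rho were computed with Python 3.11.15, pandas 2.3.3, numpy 2.4.6 and scipy 1.17.1. Comparisons at the same number of other factors used groups of 20 or more regions. The functions were tested on simulated data. There were no counts, so depth and the error between libraries are unknown, and no p-value was computed. Named regions are the 5 strongest of each class, the strongest bare region of each class, the strongest of each enhancer list and those just inside the limit. The members, lists and partner sets were chosen with earlier results of these data known. Limits, widths, overlap and chromosomes were varied.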

Additional observations from a re-analysis of the deposited data

How the results depend on the processing

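SSRP1 has 1 library and each region 1 value, so nothing here measures the error between libraries, and depth limits what a value below the listing limit means: such a region is not shown to lack SSRP1. No paired analysis was possible because no result comes from a test and the region table carries no replicate numbers. Of the values recomputed for the class, enhancer and R1 comparisons, 22 stayed within the interval of the reported value, 25 moved further and 3 changed sign. Comparisons set up after the data were seen are those at equal numbers of other factors, the top H3K27ac bin, distance, partners and H3K4me2.

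With SSRP1 counted from a log2 enrichment of 1, the shares were 10.3% at H3K4me1-only, 45.7% at both-mark and 18.0% at H3K4me3-only regions. Active minus poised was then 13.4 points, with minus without H3K27ac 12.3, and near minus far from H3K4me3 8.90 (17.0 at the listing limit). The median strength at H3K4me1-only minus both-mark regions was -0.056 (-0.15 at the listing limit), the median number of other factors differed by 6 (5 at the listing limit), and the distal share by -10.0 points (-3.26 at the listing limit). Standardised for width, the both-mark share was 63.5%, active minus poised 20.2, with minus without H3K27ac 25.2 and the number of other factors 5.4. At equal numbers of other factors the class shares were 29.4%, 42.6% and 20.7%. Splitting H3K27ac at 1 gave 22.7 points, and partners from a log2 enrichment of 1 gave a difference of 3 factors. Near minus far was 21.4 points with H3K27ac and 3.10 without it. The distal difference with H3K27ac listed was -6.59 points.

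The H3K4me1 ratio difference of 0.007 changed sign at an overlap of 50% of the region (-0.0022), on chromosome 1 alone (-0.073) and with H3K27ac listed (-0.00052), and was 0.058 as deposited. The cause was not tested. The H3K4me2 difference was 0.053 as deposited, 0.27 on chromosome 1 and 0.18 with H3K27ac listed, above 0 in each of these. At proximal peaks alone the medians lay the other way, at -0.41 with SSRP1 and -0.27 without. The difference in share between SSRP1 regions and other regions was above 0 for each of 16 partners at the stricter limits, under the width standard and without X and Y. Its size was less stable: with partners from a log2 enrichment of 1 it ranged from 0.10 to 30.5 points, with PHRF1 at 24.4 (44.03 at the listing limit), MED1 at 13.6 (30.48), MED12 at 7.37 (19.82) and PHF5A at 7.43 (17.76), and SNF2H came first. A different measure, the SSRP1 share with minus without the partner at equal numbers of other factors, was above 0 for 15 of 16, with WSTF at -4.03.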
